A study of Mus musculus with 48 samples.

Results

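The cytochrome P450 genes of families 1 to 3 are the ones best known for handling drugs, other foreign chemicals, steroids and bile acids in the liver. They were taken here as every gene on the array whose symbol begins Cyp1, Cyp2 or Cyp3 followed by a subfamily letter and a gene number. Pseudogenes and Cyp2b9, Cyp2b10 and Cyp2b13 were not included. Each gene was read through 1 probe, the brightest on average over all arrays. The rule gave 54 genes of 37074 on the array, and 47 of them were among the 20486 genes bright enough to be tested. The rule used no contrast between groups. The members are related genes that lie in clusters, so they are not independent of each other.

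Liver RNA was measured on 48 one-colour Agilent arrays, 1 for each male mouse. The p110αhep-/- mice (labelled LKO) carried floxed alleles of p110α, the catalytic subunit of a PI3-kinase that acts downstream of the insulin receptor, and a Cre transgene driven by the albumin promoter, which is active in hepatocytes. Their p110αhep+/+ littermates (LWT) carried the same floxed alleles without Cre. Mice were 12 weeks old when they were given a control diet (CTRL) or a high-fat diet (HFD, 60% of energy from fat) for 12 weeks, and were then killed at ZT16, either fed or after a 24 h fast, with 6 mice in each of the 8 groups. The comparisons ask how fasting, HFD and loss of hepatocyte p110α each change liver RNA, and whether one changes the response to another. In bulk liver, fewer cells of a type and less RNA per cell cannot be told apart.

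Cytochromes P450 are haem enzymes of the endoplasmic reticulum that insert oxygen into their substrates with electrons passed on by the reductase encoded by Por. Several genes of these families are induced when foreign chemicals bind the receptors AhR (Cyp1a genes), CAR (Cyp2b and Cyp2c genes) or PXR (Cyp3a genes), and their basal level in hepatocytes depends on factors such as HNF4α. In mouse liver many of them are also higher in one sex, or higher in hepatocytes near the central vein or near the portal tract.

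Values are log2 of the normalized median spot signal. Such a level depends on the probe as well as on the RNA, so levels are set against each other only within a gene. A difference is a log2 fold change from limma, given with its standard error (SE), and "called" means an adjusted p of at most 0.05 together with a fold change over 1.5, or 0.58 on the log2 scale. Fits and adjustment for multiple testing ran over all probes kept. The arrays had 50.1% to 57.4% of probes well above background and no saturated spot. Markers of hepatocytes were above background on all 48 arrays (6 of 6 markers). The probe for Pik3ca, the gene that encodes p110α, was higher in p110αhep-/- mice when fed, by 0.58 on HFD (13.08 to 13.56, against 12.58 to 12.99, adjusted p = 2.73e-07, just under the fold threshold) and by 0.39 on CTRL (adjusted p = 4.03e-04). In fasted mice the difference was 0.25 on HFD (adjusted p = 0.0172) and 0.08 on CTRL (adjusted p = 0.523). Whether it lies in the deleted part is not known here, so it gives no check of the genotype and the labels were used as given. Members' values stood apart most often on 2 arrays, replicate 1 of fed p110αhep+/+ mice on HFD and replicate 3 of fed p110αhep-/- mice on HFD (6 values each). Counts without both arrays are given with the results.

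Sequence is shown first for genes of the Cyp2c and Cyp3a subfamilies, since close relatives can share both control elements and probe sequence. RefSeq promoters (GRCm38.p6, the 250 bases before the start) were found for 46 of the 54 genes, with 49 promoters among them. The letters CAAAGTCCA, a form of the site bound by HNF4α, were searched on both strands. They occurred in 8 member promoters (16.3%) and in 0.384% of the 32851 promoters of the table, and all 8 of these matches were on the gene's own strand. In 6 of the 8 the gene is a Cyp2c gene, and related promoters are not separate events. The following windows of 59 bases, written 5′ to 3′ on the strand of the gene, hold the matching letters in capitals. The first 4 are shown because these genes were called lower with HFD in fed p110αhep-/- mice. The others are shown because they differ from these 4 in sequence. Of the others, Cyp2c70 was also called lower in that comparison (-1.26) and Cyp3a11 was called higher (1.11).
Cyp2c40, chr19:39812826-39812884, minus strand: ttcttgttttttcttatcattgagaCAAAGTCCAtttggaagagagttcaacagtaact
Cyp2c67, chr19:39649134-39649192, minus strand: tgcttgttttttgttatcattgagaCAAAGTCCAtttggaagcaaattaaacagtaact
Cyp2c68, chr19:39741145-39741203, minus strand: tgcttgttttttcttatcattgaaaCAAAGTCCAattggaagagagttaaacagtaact
Cyp2c69, chr19:39886811-39886869, minus strand: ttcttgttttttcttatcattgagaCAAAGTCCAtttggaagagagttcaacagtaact
Cyp2c70, chr19:40187317-40187375, minus strand: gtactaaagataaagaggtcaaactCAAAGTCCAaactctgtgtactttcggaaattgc
Cyp3a11, chr5:145879930-145879988, minus strand: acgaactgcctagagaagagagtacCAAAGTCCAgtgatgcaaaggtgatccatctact

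The windows of Cyp2c40 and Cyp2c69 are the same in all 59 bases. The Cyp2c68 window differs from the Cyp2c40 window at 4 bases and the Cyp2c67 window at 6, whereas the Cyp2c70 window differs from it at 41. Cyp2c65 and Cyp3a16 also hold the letters. The 3 other motifs were counted in the same way, each on both strands. The AhR core GCGTG occurred in 7 member promoters (14.3%) and in 28.2% of all promoters, and it was found before Cyp1a1 but not before Cyp1a2. TTCNNNGAA, bound by STAT5, occurred in 2.04% of member promoters and in 7.02% of all. The D-box letters TTATGTAA or TTACGTAA were in no member promoter and in 0.932% of all. A match is only a match of letters in this window.

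Of 1431 pairs of member probes, 2 had at least 90% identical bases over their overlap, so that each of these probes could also bind RNA of the other gene. The probes of Cyp3a25 and Cyp3a57 were identical at 49 of 52 overlapping bases and differ by G17T, T47C and A49G, with positions counted from the 5′ end of the Cyp3a25 probe. The probes of Cyp2c67 and Cyp2c68 were identical at 55 of 59 and differ by A4C, A14G, C40A and C52A, counted from the 5′ end of the Cyp2c67 probe. A stretch of 30 bases of each shows how alike they are, with the differing bases in capitals.
Cyp3a25 probe: gtgtcaagagataaacccagaactggaTcA
Cyp3a57 probe: gtgtcaagagataaacccagaactggaCcG
Cyp2c67 probe: acAcagtcccagAaattccatctatattcc
Cyp2c68 probe: acCcagtcccagGaattccatctatattcc
The values of each pair are therefore uncertain as measures of 1 gene. Probes were compared only with each other, over overlaps of at least 30 bases. Whether any member's probe also binds RNA of a related gene elsewhere was not tested.

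Over the 12 pairwise comparisons, 30 of the 47 tested members were called at least once and 17 never, beside 18.4% of all tested genes called at least once. There were 82 calls, 58 higher and 24 lower. They include 3 of Cyp3a44 and 6 of Cyp2u1, which are limited by their probes as described with those genes. All 82 had the same sign within each of the 2 washing batches. The comparisons share groups of mice, so calls in different comparisons are not independent. The Cyp2c genes gave 32 calls and the Cyp3a genes 19, and the largest fall and the largest rise were both those of Cyp2c70.

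**Figure D1:**
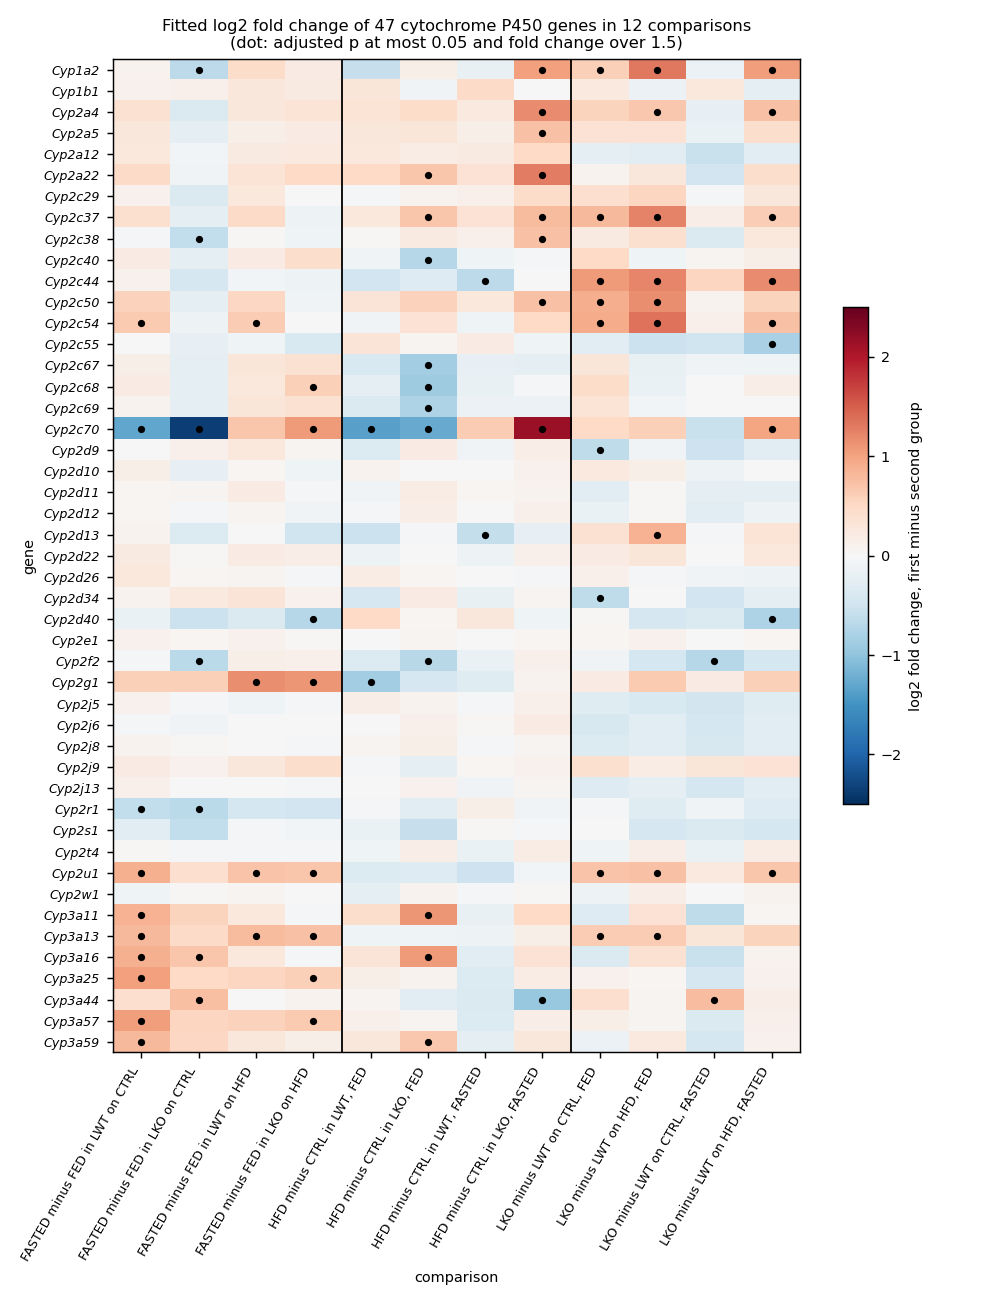
Log2 fold change of the 47 tested members (rows, by subfamily) in the 12 pairwise comparisons (columns), with colour for the log2 fold change and a dot where the gene was called (adjusted p at most 0.05 and fold change over 1.5). Cyp2c70 holds both the deepest fall (-2.36, fasting in LKO on CTRL) and the largest rise (2.17, HFD in fasted LKO).

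Fasting raised more members than it lowered in p110αhep+/+ mice on CTRL, where 8 of 47 were called higher and 2 lower, beside 2.93% and 2.52% of all genes. In p110αhep-/- mice on CTRL 2 were called higher and 5 lower, beside 3.65% and 3.43%. The higher ones include Cyp3a44, which reached the test only through these fasted mice. The direction of the calls in p110αhep-/- mice on CTRL depended on the scaling. With the scanner software's processed signal 7 of 11 called members were higher, with median scaling 7 of 10 and with normexp background correction 1 of 6. On HFD, all 4 members called in p110αhep+/+ mice were higher, beside 2.25% of all genes higher and 2.47% lower. In p110αhep-/- mice on HFD 7 were higher and 1 lower, beside 2.75% and 3.15%. The median log2 fold change of the 47 members was 0.12, -0.06, 0.23 and 0.03 in these 4 comparisons.

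In p110αhep+/+ mice HFD lowered 2 members in the fed state, beside 2.63% of all genes higher and 1.08% lower, and 2 in the fasted state, beside 1.82% and 0.996%. In p110αhep-/- mice it raised 5 and lowered 6 in the fed state, beside 1.3% and 1.04%, and in the fasted state it raised 8 and lowered 1, beside 0.927% and 0.967%. The lowered one is Cyp3a44, which reached the test only through fasted p110αhep-/- mice on CTRL. With no fold threshold 15 members passed in fed p110αhep+/+ mice, so the low count there rests on the threshold. With the processed signal 1 of 5 called members was higher in fasted p110αhep+/+ mice, and with normexp 8 of 8 in fasted p110αhep-/- mice. The members' median was -0.02 and -0.04 in p110αhep+/+ mice and 0.08 and 0.12 in p110αhep-/- mice.

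Between genotypes on CTRL, 7 members were higher and 2 lower in fed p110αhep-/- mice, beside 1.53% and 2.2% of all genes, and 1 was higher and 1 lower in fasted mice, beside 1.33% and 1.9%. The higher one is Cyp3a44, which reached the test only through these fasted p110αhep-/- mice. On HFD, all 9 called members were higher in fed p110αhep-/- mice, beside 2.21% of all genes higher and 4.02% lower. In fasted mice on HFD 7 were higher and 2 lower, beside 2.33% and 4.23%. With median scaling 8 of 9 called members were higher in fed and 2 of 3 in fasted p110αhep-/- mice on CTRL, and with normexp 0 of 1 in the latter. With no fold threshold 17 of 25 members that passed were higher in fed and 3 of 17 in fasted p110αhep-/- mice on CTRL, and 14 of 23 in fed and 15 of 24 in fasted ones on HFD, so the mostly higher calls rest on the fold threshold in part. The members' median was 0.14, -0.16, 0.11 and 0.10 in the order CTRL fed, CTRL fasted, HFD fed, HFD fasted. The median of all genes lay between -0.02 and 0.03 in the 12 comparisons. Without both arrays that stood apart, the counts of called members were 10, 7, 4 and 7 for fasting, 3, 2, 12 and 9 for HFD and 9, 3, 9 and 9 for genotype, with the comparisons in the order in which their counts stand above.

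**Figure D2:**
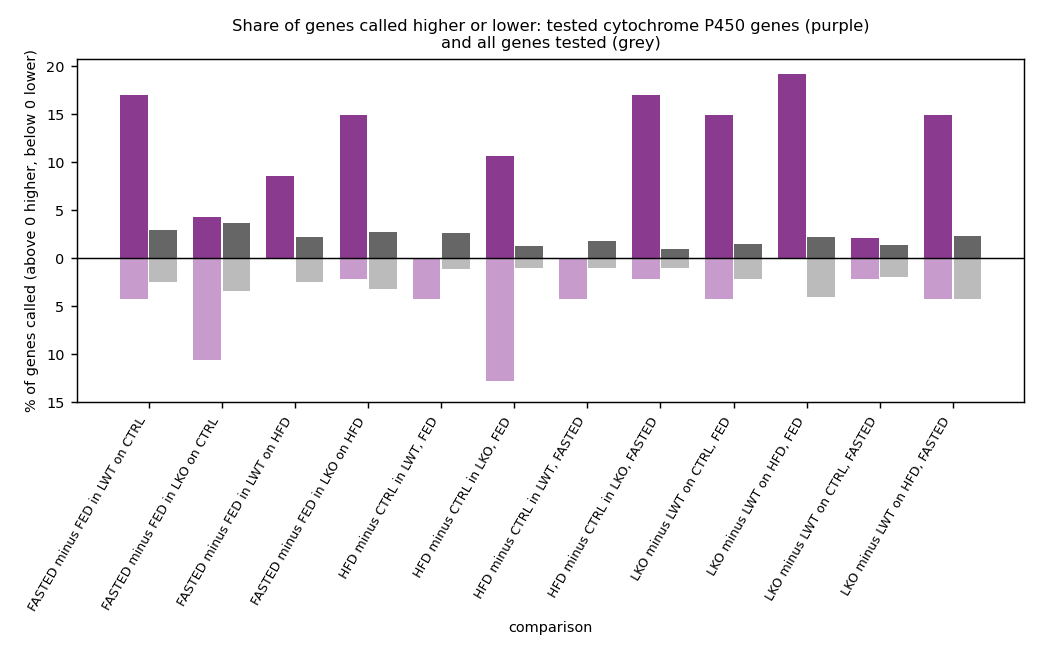
Percent of the 47 tested members and of all 20486 tested genes that were called higher or lower in each of the 12 comparisons. For HFD in fed LKO mice (5 members higher, 6 lower) the share of members is above that of all genes in both directions.

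Cyp1a2, which metabolizes caffeine and is the main Cyp1a gene of unexposed liver, was called in 5 of the 12 comparisons. In fed mice on HFD its log2 signal ranged from 10.23 to 10.92 (median 10.72) in p110αhep+/+ and from 11.61 to 12.61 (median 11.96) in p110αhep-/- mice. The groups did not overlap, and Cyp1a2 was higher in p110αhep-/- mice by 1.31 (SE 0.16, limma adjusted p = 8.43e-09). In fasted mice on HFD it ranged from 10.66 to 11.58 (median 11.32) and from 11.94 to 12.39 (median 12.28), again without overlap, a difference of 1.05 (SE 0.16, adjusted p = 1.58e-06). In fasted mice on CTRL the ranges were 11.15 to 11.55 and 10.81 to 11.59, which overlap, with a difference of -0.15 (adjusted p = 0.514). Cyp1a2 of fed p110αhep-/- mice on CTRL ranged from 11.61 to 12.11, above all fasted ones, and fell with fasting by 0.66 on the log2 scale (adjusted p = 6.78e-04). HFD raised it in fasted p110αhep-/- mice by 1.02 (adjusted p = 2.07e-05). The genotype difference in fed mice on CTRL was 0.59 (adjusted p = 0.0049) with overlapping groups. It lost its call without any of 6 single arrays, with values of 0.46 to 0.58, and with the processed signal or normexp.

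Cyp1a1, the form induced by AhR ligands such as dioxin, was not tested, since its probe was above background on only 3 of 48 arrays, all from p110αhep-/- mice. Cyp1b1, which oxidizes oestrogens and is found mostly outside hepatocytes, was tested and not called in any comparison (-0.22 to 0.48).

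Cyp2a genes hydroxylate coumarin and nicotine (Cyp2a5) or testosterone (Cyp2a4), and 3 of the 4 tested were called, all of them higher with HFD in fasted p110αhep-/- mice. Cyp2a4 ranged from 15.92 to 16.78 (median 16.40) in fasted p110αhep-/- mice on CTRL and from 17.25 to 17.88 (median 17.55) on HFD. These groups did not overlap, and the difference was 1.17 (SE 0.17, adjusted p = 7.69e-06). Cyp2a22 ranged from 11.97 to 12.50 (median 12.19) on CTRL and from 13.16 to 13.86 (median 13.58) on HFD, without overlap, a rise of 1.28 (SE 0.14, adjusted p = 4.20e-08). Cyp2a5 rose by 0.74 (SE 0.13, adjusted p = 1.33e-04), also without overlap. In fasted p110αhep+/+ mice no HFD effect on these 3 genes was called. The genotype by diet interaction in fasted mice was 0.93 for Cyp2a4, 0.92 for Cyp2a22 and 0.59 for Cyp2a5 (adjusted p = 0.0177, 0.00326 and 0.0454), and that of Cyp2a5 was lost without any of 15 single arrays. Between genotypes on HFD, Cyp2a4 was higher in p110αhep-/- mice by 0.68 when fed (adjusted p = 0.00169) and by 0.73 when fasted (adjusted p = 9.16e-04). Cyp2a22 also rose with HFD in fed p110αhep-/- mice by 0.69 (adjusted p = 5.60e-04), and by 0.57 with no call without replicate 2 of fed p110αhep-/- mice on HFD. Cyp2a12, the fourth gene, was not called in any comparison (-0.55 to 0.50).

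**Figure D3:**
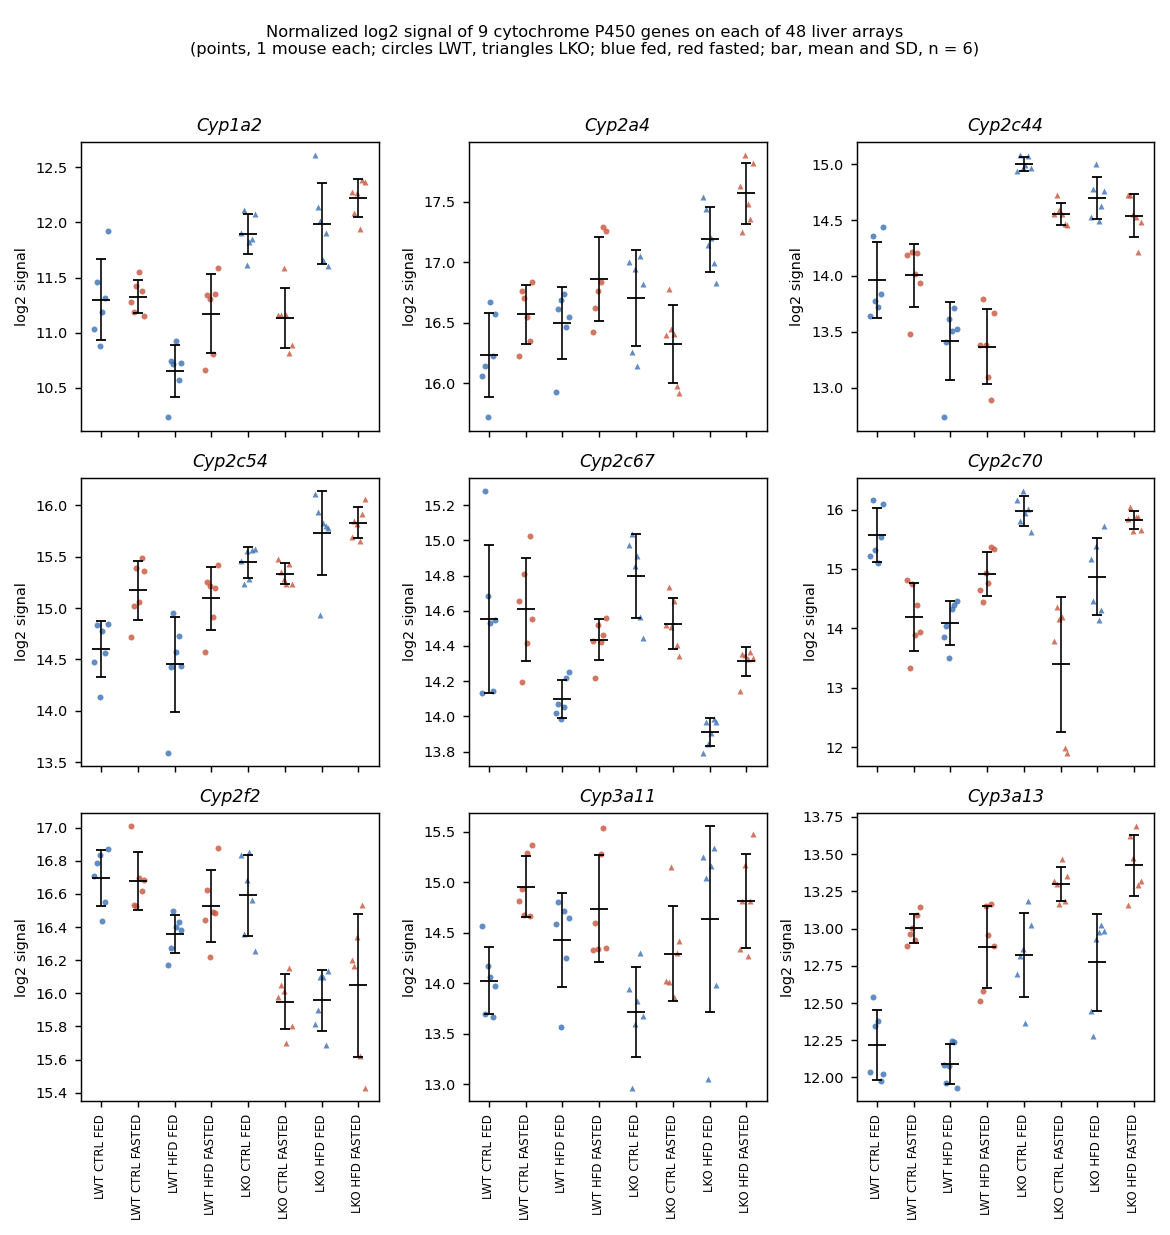
Log2 signal of 9 members in each of the 8 groups. Points are mice, and bars show the mean and SD (n = 6). Cyp2c70 falls with fasting on CTRL and is at 15.63 to 16.04 in fasted LKO mice on HFD, and Cyp1a2 is at 11.61 or above in all LKO groups other than fasted on CTRL.

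The Cyp2c genes, which oxidize fatty acids, steroids and many drugs, gave more calls than any other subfamily and are also the subfamily with the most genes tested, and 11 of the 12 were called at least once. Cyp2c70 makes muricholic acids, the hydrophilic bile acids that mice have and humans lack. Its probe lies at chr19:40227969-40228028 (mm9, minus strand). In fed p110αhep-/- mice on CTRL its log2 signal ranged from 15.62 to 16.32 (median 15.98), and in fasted ones from 11.90 to 14.36 (median 13.97). The groups did not overlap, and Cyp2c70 fell by 2.36 on the log2 scale (SE 0.29, adjusted p = 1.43e-08), with the widest spread of any group in the fasted mice. In p110αhep+/+ mice on CTRL it ranged from 15.11 to 16.16 (median 15.42) when fed and from 13.34 to 14.82 (median 14.17) when fasted, a fall of 1.30 on the log2 scale (SE 0.29, adjusted p = 4.35e-04) with no overlap. On HFD the direction was the other way. Fed and fasted p110αhep-/- mice ranged from 14.15 to 15.73 (median 14.82) and from 15.63 to 16.04 (median 15.86), groups that overlap slightly, and the rise was 1.06 (SE 0.32, adjusted p = 0.0103). In p110αhep+/+ mice on HFD the difference was 0.69 (adjusted p = 0.0575), which was not called.

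HFD lowered Cyp2c70 in fed mice and raised it in fasted p110αhep-/- mice. In fed p110αhep+/+ mice it ranged from 15.11 to 16.16 on CTRL and from 13.50 to 14.47 on HFD (median 14.18), a difference of -1.36 (SE 0.28, adjusted p = 3.56e-04) without overlap. In fed p110αhep-/- mice the difference was -1.26 (SE 0.31, adjusted p = 0.00429) with overlapping groups. In fasted p110αhep-/- mice it was 2.17 (SE 0.30, adjusted p = 3.27e-06), without overlap. The diet by fasting interaction was 1.99 (SE 0.40, adjusted p = 0.00335) in p110αhep+/+ mice and 3.42 (SE 0.43, adjusted p = 3.34e-07) in p110αhep-/- mice. Within the washing batches the fall with fasting in p110αhep-/- mice on CTRL was -2.69 and -2.47, and the rise with HFD in fasted p110αhep-/- mice was 2.58 and 2.27. In fasted mice on HFD, Cyp2c70 was higher in p110αhep-/- mice by 0.98 (adjusted p = 0.00998), without overlap. The other 3 genotype differences lay between -0.56 and 0.60 and were not called.

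Cyp2c40, Cyp2c67, Cyp2c68 and Cyp2c69, close relatives that oxidize arachidonic acid or whose substrates are little known, fell together with HFD in fed p110αhep-/- mice. Cyp2c67 ranged from 14.44 to 15.04 (median 14.88) on CTRL and from 13.79 to 13.99 (median 13.94) on HFD, a fall of 0.87 on the log2 scale (adjusted p = 1.76e-06). Cyp2c68 fell by 0.88, Cyp2c69 by 0.77 and Cyp2c40 by 0.70 on the log2 scale (adjusted p = 6.24e-06, 8.53e-06 and 2.56e-04), and the groups did not overlap for any of the 4 genes. In fed p110αhep+/+ mice the difference for Cyp2c67 was -0.38 (adjusted p = 0.00989), under the fold threshold. The diet by fasting interaction in p110αhep-/- mice was called for all 4 genes, at 0.63 for Cyp2c67, 0.85 for Cyp2c68, 0.63 for Cyp2c69 and 0.67 for Cyp2c40, those of Cyp2c67 and Cyp2c69 not with the processed signal. The log2 fold changes of Cyp2c67 and Cyp2c69 differed by at most 0.116 over the 12 comparisons and those of Cyp2c67 and Cyp2c68, whose probes are alike, by at most 0.271. Fasting raised Cyp2c68 in p110αhep-/- mice on HFD by 0.61 (adjusted p = 7.55e-04), and this call was lost without any of 4 single arrays (0.53 to 0.58), and with a block for slide or a replicate block (both 0.58).

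Cyp2c44, Cyp2c50 and Cyp2c54, which oxidize arachidonic and linoleic acid, were higher in fed p110αhep-/- mice on either diet. Cyp2c44 ranged from 13.65 to 14.44 (median 13.81) in fed p110αhep+/+ mice on CTRL and from 14.94 to 15.08 (median 14.98) in fed p110αhep-/- mice, without overlap. The difference was 1.07 (SE 0.14, adjusted p = 1.55e-07), and on HFD it was 1.23 when fed and 1.18 when fasted, both without overlap (adjusted p = 2.19e-09 and 1.63e-08). In fasted mice on CTRL the difference was 0.54 (adjusted p = 0.00203), under the fold threshold. Cyp2c50 was higher in fed p110αhep-/- mice by 0.90 on CTRL and 1.15 on HFD (adjusted p = 1.10e-05 and 3.57e-08), and Cyp2c54 by 0.92 and 1.36 (adjusted p = 1.19e-05 and 1.20e-09). Both sets of groups overlap on HFD and not on CTRL. In fasted mice on HFD, Cyp2c54 was higher by 0.73 (adjusted p = 2.10e-04), and the genotype difference in fasted mice on CTRL was 0.13 (adjusted p = 0.568). The genotype by fasting interaction on CTRL was -0.82 for Cyp2c50 and -0.79 for Cyp2c54 (adjusted p = 0.0139 and 0.0209). Neither was called without the dim filter or without array weights, nor was that of Cyp2c50 over the median of its probes, where it lay nearest to 0 at -0.60.

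Fasting raised Cyp2c54 in p110αhep+/+ mice by 0.66 on CTRL (adjusted p = 3.98e-04) and by 0.63 on HFD (adjusted p = 5.35e-04). The first call was lost without array weights (0.57) and without replicate 3 of fed p110αhep+/+ mice on CTRL (0.53) and the second without replicate 1 of fed p110αhep+/+ mice on HFD (0.50), and both pairs of groups overlap. HFD lowered Cyp2c44 in fasted p110αhep+/+ mice by 0.65 on the log2 scale (adjusted p = 5.50e-04), a call lost without replicate 4 (-0.57) or replicate 5 (-0.58) of fasted p110αhep+/+ mice on HFD. Cyp2c50 rose with HFD in fasted p110αhep-/- mice by 0.73 (adjusted p = 8.06e-04), but by 0.24 with no call when its probes were averaged by their median. Its dimmer probe lay the other way in these mice, with a median of 9.96 on CTRL and 9.70 on HFD. Cyp2c55, an enzyme of the colon and of induced liver, was dim at 5.77 to 7.43 and was lower by 0.82 on the log2 scale in fasted p110αhep-/- mice on HFD (adjusted p = 2.26e-04), without overlap, with values from -0.65 to -1.35 over the alternatives. Its second probe had the same direction there but was not called. That probe overlapped between genotypes, at 6.46 to 7.21 in p110αhep+/+ and 5.88 to 6.54 in p110αhep-/- mice. Cyp2c29, which is induced through CAR, was not called in any comparison (-0.37 to 0.54). Cyp2c39, Cyp2c65 and Cyp2c66 were not tested. Cyp2c39 was above background on 3 of 6 arrays of fasted p110αhep+/+ mice on HFD.

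Of the 9 Cyp2d genes, which in humans include the gene for the debrisoquine hydroxylase, 4 were called, with 6 calls in all. Cyp2d13 ranged from 9.39 to 10.04 (median 9.77) in fed p110αhep+/+ mice on HFD and from 10.11 to 10.79 (median 10.65) in fed p110αhep-/- mice, without overlap. It was higher in the latter by 0.86 (adjusted p = 2.31e-09). Its fall of 0.59 on the log2 scale with HFD in fasted p110αhep+/+ mice (adjusted p = 1.65e-05) sat at the fold threshold and was lost without any of 5 single arrays (-0.54 to -0.58) and under 6 of 10 alternatives. Cyp2d40 was lower by 0.77 on the log2 scale in fasted p110αhep-/- mice on HFD than in p110αhep+/+ mice (adjusted p = 5.85e-05), without overlap, or by 0.48 with no call over the median of its probes. It fell with fasting in p110αhep-/- mice on HFD by 0.71 on the log2 scale (adjusted p = 4.25e-04). Cyp2d9, a steroid hydroxylase higher in male mice than in females, was lower in fed p110αhep-/- mice on CTRL by 0.63 on the log2 scale (adjusted p = 0.00379). Its groups overlap, and the call was lost without replicate 3 (-0.54) or replicate 5 (-0.55) of fed p110αhep-/- mice on CTRL, with median scaling and without array weights. The other 5 Cyp2d genes lay between -0.26 and 0.31.

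Cyp2e1, which oxidizes ethanol and paracetamol, was never called. Its brightest probe lay between 18.26 and 18.54 on all arrays, at the top of the scale where quantile normalization gives nearly the same values to every array, so its small log2 fold changes (0.00 to 0.11) say little. The second probe was higher in fasted than in fed mice, in p110αhep+/+ mice on HFD by 0.48 (16.61 to 16.96 fed, 17.10 to 17.40 fasted, adjusted p = 3.62e-07), without overlap but under the fold threshold. Its other 3 fasting differences were 0.38 and 0.32 on CTRL and 0.29 in p110αhep-/- mice on HFD. Cyp2f2, a lung and liver enzyme that activates naphthalene and in liver marks hepatocytes near the portal tract, was lower in p110αhep-/- mice fasted on CTRL. It ranged from 16.53 to 17.01 (median 16.65) in fasted p110αhep+/+ mice on CTRL and from 15.70 to 16.15 (median 16.00) in fasted p110αhep-/- mice, without overlap, a fall of 0.72 on the log2 scale (SE 0.12, adjusted p = 7.40e-06). In p110αhep-/- mice Cyp2f2 fell by 0.67 with fasting on CTRL and, when fed, by 0.69 on the log2 scale with HFD (adjusted p = 1.59e-05 and 1.33e-04), both without overlap. The first was not called with the scanner software's processed signal or with median scaling (its smallest value was -0.49). The genotype differences on HFD were -0.44 both when fed and when fasted (adjusted p = 0.00423 and 0.00453), under the fold threshold.

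Cyp2g1, a gene best known from olfactory tissue, was dim here. It rose with fasting on HFD by 1.17 in p110αhep+/+ mice (adjusted p = 3.64e-04) and by 1.11 in p110αhep-/- mice (adjusted p = 0.00335), with overlapping groups, and fell with HFD in fed p110αhep+/+ mice by 0.87 on the log2 scale (adjusted p = 0.011). Over the alternatives, all of which called them, these values ranged from 0.86 to 1.92, from 0.87 to 1.45 and from -0.64 to -1.59. Cyp2r1, which hydroxylates vitamin D, fell with fasting on CTRL in both genotypes, by 0.62 in p110αhep+/+ mice and by 0.67 on the log2 scale in p110αhep-/- mice (adjusted p = 8.31e-07 and 1.89e-07), with no overlap in either. On HFD its fasting differences were -0.45 and -0.48, below the fold threshold, with adjusted p = 1.22e-04 and 3.85e-04. The fall in p110αhep+/+ mice lost its call without any of 3 single arrays (-0.53 to -0.58). Cyp2b19, Cyp2b23 and Cyp2j11 were not tested. No Cyp2j gene was called (5 tested, -0.46 to 0.45), nor were Cyp2s1, Cyp2t4 and Cyp2w1. Under the fold threshold, the medians of Cyp2j5 and Cyp2j6 were lower in p110αhep-/- mice in each diet and feeding state, and those of Cyp2j9 higher. In fed mice on CTRL, Cyp2j5 ranged from 14.07 to 14.31 in p110αhep+/+ and from 13.60 to 14.05 in p110αhep-/- mice.

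Cyp2u1, a fatty acid hydroxylase of brain and thymus that liver also holds, gave 6 calls through its brightest probe, all higher. Fasting raised that probe by 0.89 on CTRL and by 0.72 on HFD in p110αhep+/+ mice and by 0.68 on HFD in p110αhep-/- mice, the last not called without array weights. It was higher in p110αhep-/- mice by 0.72 in fed mice on CTRL, 0.74 in fed mice on HFD and 0.70 in fasted mice on HFD. The 2 other Cyp2u1 probes, far dimmer at mean log2 signals of 7.89 and 7.50 against 16.6, did not share these calls. In the 12 pairings of a call with another probe, 2 had the same direction and 3 were called in the opposite one. Both dimmer probes fell with fasting in p110αhep-/- mice on CTRL by 1.07 and 0.98 on the log2 scale (adjusted p = 1.33e-09 and 1.96e-07). The direction of Cyp2u1 therefore depends on the probe, and whether the brightest probe measures Cyp2u1 RNA is not known here.

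**Figure D4:**
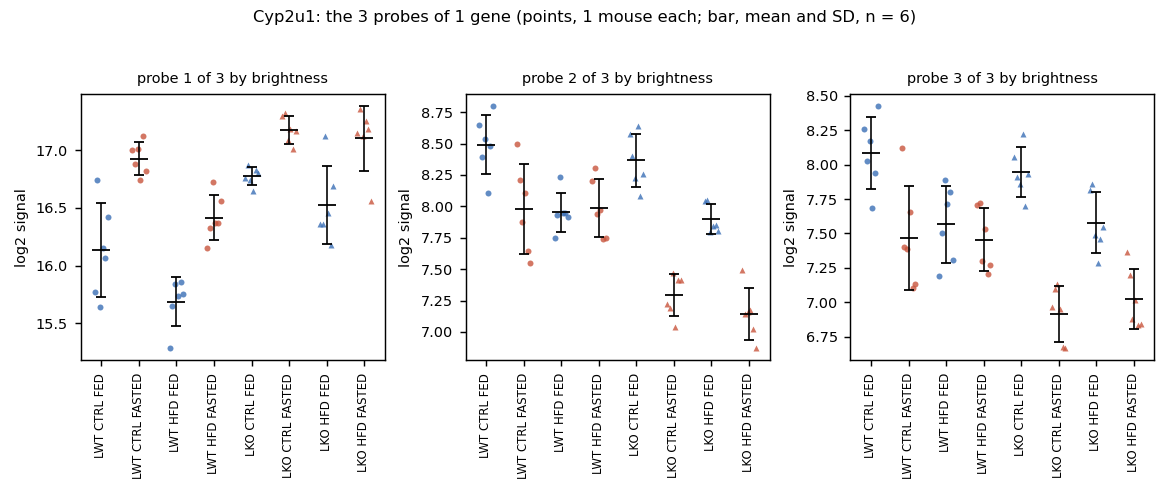
Log2 signal of the 3 Cyp2u1 probes in the 8 groups, with a point for each mouse and the mean and SD (n = 6). The brightest probe rises with fasting in LWT mice on CTRL (0.89), while one of the dimmer probes falls by 0.67 there.

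Cyp3a genes oxidize the widest range of drugs and steroids, and all 7 tested were called, Cyp3a44 among them only with the limit given with that gene. Fasting raised most of them in p110αhep+/+ mice on CTRL. Cyp3a11, the main Cyp3a gene of mouse liver and a target of PXR, ranged from 13.67 to 14.57 (median 14.02) in fed and from 14.67 to 15.37 (median 14.87) in fasted p110αhep+/+ mice on CTRL. These groups did not overlap, and the rise was 0.88 (SE 0.25, adjusted p = 0.00643). In p110αhep-/- mice on CTRL it was 0.57 (adjusted p = 0.086), not called, and on HFD -0.04. HFD raised Cyp3a11 in fed p110αhep-/- mice by 1.11 (SE 0.27, adjusted p = 0.00434) with overlapping groups, and the difference in fed p110αhep+/+ mice was 0.43 (adjusted p = 0.218). The genotype by diet interaction in fed mice was 0.68 (adjusted p = 0.337), so the 2 HFD effects were not shown to differ.

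Cyp3a25 and Cyp3a57, whose probes are alike, rose with fasting in p110αhep+/+ mice on CTRL by 1.03 and 1.05 (adjusted p = 1.13e-07 and 2.39e-07). Cyp3a25 ranged from 13.49 to 14.30 (median 14.06) in the fed mice and from 14.63 to 15.31 (median 15.12) in the fasted mice, without overlap, and in p110αhep-/- mice on CTRL the rise of 0.49 (adjusted p = 0.00481) was under the fold threshold. On HFD in p110αhep-/- mice fasting raised Cyp3a25 by 0.60 and Cyp3a57 by 0.65 (adjusted p = 0.00267 and 0.00203), with overlap. Without replicate 3 of fasted p110αhep-/- mice on HFD these values were 0.50 and 0.53, and without replicate 6 of fed p110αhep-/- mice on HFD 0.47 and 0.52, none of them called. A block for slide (0.57) and a further 2 arrays left Cyp3a25 without its call, replicate 2 of fasted (0.55) and replicate 3 of fed (0.57) p110αhep-/- mice on HFD. Cyp3a13, a more distant Cyp3a gene, rose with fasting by 0.82 and 0.79 in p110αhep+/+ mice on CTRL and HFD and by 0.73 in p110αhep-/- mice on HFD (adjusted p = 9.55e-07, 1.21e-06 and 6.67e-05), each without overlap. It was also higher in fed p110αhep-/- mice by 0.64 on CTRL and 0.63 on HFD (adjusted p = 1.88e-04 and 1.19e-04). Leaving out replicate 5 of fed p110αhep-/- mice on CTRL took the first of these 2 to 0.56 with no call, and leaving out any of 4 arrays took the second to 0.55 to 0.58. The fasting rise of Cyp3a13 in p110αhep-/- mice on HFD was 0.56 with no call without replicate 2 of fed p110αhep-/- mice on HFD.

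Cyp3a16, higher in young and female mice, rose with fasting on CTRL by 0.88 in p110αhep+/+ mice (adjusted p = 0.00372, no overlap) and by 0.69 in p110αhep-/- mice (adjusted p = 0.0244, overlap). The second call was lost without any of 3 single arrays (0.46 to 0.65). HFD raised it in fed p110αhep-/- mice by 1.07 (adjusted p = 0.00349, overlap). Its log2 fold changes differed from those of Cyp3a11 by at most 0.151, and whether its probe also binds RNA of related genes was not tested. Cyp3a44, a gene much higher in female than in male liver, was above background on 6 of 6 arrays only in fasted p110αhep-/- mice on CTRL and on 0 or 1 of 6 in each of the 7 other groups. The gene reached the test only through this group, where it had to be higher, so its levels are a description and its 3 pairwise calls and 2 interactions support nothing. Its log2 signal ranged from 5.93 to 6.60 (median 6.04) there, from 4.81 to 5.68 in fasted p110αhep+/+ mice on CTRL, from 5.07 to 5.69 in fed p110αhep-/- mice on CTRL and from 4.92 to 5.38 in fasted p110αhep-/- mice on HFD. In each of the latter 3 groups the probe was above background on 1 of 6 arrays. With normexp background correction all 3 pairwise calls ended, at 0.43 for fasting in p110αhep-/- mice on CTRL, -0.54 for HFD in fasted p110αhep-/- mice and 0.43 for genotype in fasted mice on CTRL.

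A further 4 called members fall outside the rule that chose the named ones and were singled out after their values were seen. Cyp2c37 was called in 5 comparisons, all higher, Cyp2c38 and Cyp3a59 in 2 each and Cyp2d34 in 1.

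The interactions ask whether one factor changes the response to another. Genotype by diet was called for 7 members in fasted mice, beside 1.88% of all genes, and for 1 in fed mice, beside 1.4%. Genotype by fasting was called for 4 on CTRL, beside 1.32%, and for 0 of 47 on HFD with limma, beside 1.4%, where 4 members had an unadjusted p under 0.05. Diet by fasting was called for 1 in p110αhep+/+ mice, beside 0.888%, and for 8 in p110αhep-/- mice, beside 2.9%. Of the 7 called for genotype by diet in fasted mice, 6 were positive, meaning that HFD minus CTRL was larger in p110αhep-/- mice (Cyp1a2 1.20, Cyp2a22, Cyp2a4, Cyp2a5, Cyp2c44 0.64 and Cyp2c70 1.54), and Cyp3a44 was -0.59, a gene that passed the filter through 1 group alone, as given above. With the processed signal 4 of 4 were positive, with normexp 6 of 6 and with median scaling 5 of 5. For genotype by fasting on CTRL all 4 were negative, with Cyp2f2 at -0.62 (adjusted p = 0.0244) and Cyp1a2 at -0.74 (adjusted p = 0.0409). For Cyp1a2 the diet by fasting interaction in p110αhep-/- mice was 0.87 and for Cyp2f2 0.81 (adjusted p = 0.0124 and 0.00215), with Cyp3a44 at -0.66, with the same limit, and with normexp all 8 called were positive. Cyp2c68 was the 1 member called for genotype by diet in fed mice, at -0.64 (adjusted p = 0.0408), and with the processed signal or normexp 1 of 2 called there was positive. Several of these calls were lost when single arrays were left out: that of Cyp2c68 without any of 12 arrays, Cyp2c44 21, Cyp3a44 (genotype by diet) 17, Cyp1a2 (genotype by fasting) 14, Cyp2f2 (genotype by fasting) 7, and Cyp2c54 and Cyp2c70 (genotype by diet) 2 each. Of the 10 alternatives, 5 each ended the calls of Cyp2c68 and Cyp2a5, 6 that of Cyp2c44, 4 that of Cyp3a44 (genotype by diet) and 3 each those of Cyp1a2 and Cyp2f2 (genotype by fasting). For Cyp2c70 these arrays were replicate 3 of fasted p110αhep+/+ mice on CTRL (1.40) and replicate 2 of fasted p110αhep+/+ mice on HFD (1.41), and for Cyp2c54 replicate 3 of fed p110αhep-/- (-0.75) and of fed p110αhep+/+ (-0.66) mice on CTRL. Cyp3a44 (diet by fasting) was -0.56 with no call without replicate 6 of fed p110αhep-/- mice on HFD.

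**Figure D5:**
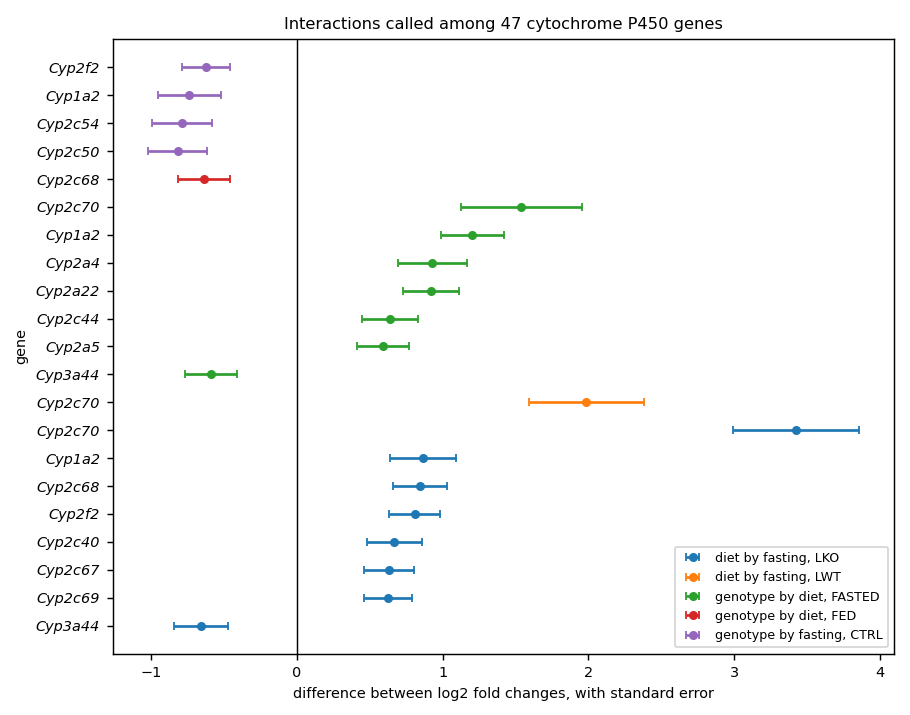
The 21 called interactions of members, as log2 differences between fold changes with their SE. The widest is the diet by fasting interaction of Cyp2c70 in LKO mice, at 3.42.

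Genes of electron transfer and haem were read from the same fit. Por, the reductase that supplies P450 enzymes with electrons, rose with fasting in all 4 comparisons (1.03 and 1.08 on CTRL, 1.11 and 1.01 on HFD, in p110αhep+/+ and p110αhep-/- mice). On HFD it was higher in p110αhep-/- mice, by 0.75 when fed and 0.64 when fasted. Cyb5a, the cytochrome b5 of the endoplasmic reticulum, where these P450 enzymes lie, was called in none of the 12 comparisons, with differences from -0.04 to 0.23. Cyb5b, the cytochrome b5 of the outer mitochondrial membrane, and Cyb5r3, a cytochrome b5 reductase, fell with fasting on CTRL, by 1.00 and 0.90 on the log2 scale in p110αhep+/+ mice and by 1.06 and 0.97 in p110αhep-/- mice. Of 11 genes of haem synthesis and breakdown, Alas1, the rate-limiting enzyme of the synthesis, rose with fasting by 0.74 and 0.98 in p110αhep+/+ and p110αhep-/- mice on CTRL and by 0.76 in p110αhep+/+ mice on HFD. The other haem genes are not described here, so Alas1 does not stand for the list.

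Of 19 regulators of these genes tested, fasting on CTRL raised 3 and lowered 1 in p110αhep+/+ mice and raised 4 and lowered 1 in p110αhep-/- mice, beside the shares of all genes given above for these comparisons (2.93% and 2.52%, then 3.65% and 3.43%). Nr1i2, which encodes PXR, rose by 0.70 and 0.80 (adjusted p = 2.79e-10 and 6.29e-12), and Cebpb by 0.83 and 1.03. On HFD, all called regulators were raised by fasting, 1 in p110αhep+/+ mice (beside 2.25% of all genes higher and 2.47% lower) and 3 in p110αhep-/- mice (beside 2.75% and 3.15%), where Hnf4a rose by 0.64 (adjusted p = 1.61e-06). Ahr rose with HFD in fed mice of both genotypes, by 0.69 and 0.72. No regulator was called between genotypes except Ppargc1a, 0.61 higher in fed p110αhep-/- mice on HFD.

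Of 23 markers of other liver cells, at most 1 was called higher and at most 3 lower in a comparison. Fasting on CTRL gave 0 higher and 2 lower in p110αhep+/+ mice and 1 higher and 2 lower in p110αhep-/- mice. On HFD fasting gave 0 calls in p110αhep+/+ mice and 1 higher and 1 lower in p110αhep-/- mice. HFD raised 1 marker in fed and 1 in fasted p110αhep+/+ mice, with 0 calls in p110αhep-/- mice. Spp1 and Krt19, markers of bile duct cells, moved with genotype. Spp1 was lower in p110αhep-/- mice in all 4 genotype comparisons, by 1.76 to 2.63 on the log2 scale, and Krt19 was called lower in 3 of them, whereas the other 3 bile duct markers were not called between genotypes. The summed signal of the 5 bile duct markers on a log2 scale was 10.64 to 11.88 (CTRL fed), 10.50 to 11.22 (CTRL fasted), 11.31 to 12.40 (HFD fed) and 11.18 to 11.88 (HFD fasted) in p110αhep+/+ mice, and 9.55 to 10.06, 9.13 to 9.52, 9.81 to 10.14 and 9.25 to 9.82 in p110αhep-/- mice, without overlap between genotypes in any of the 4. Lyve1 of sinusoidal endothelium was lower in fed p110αhep-/- mice, by 1.13 on CTRL and 0.82 on HFD on the log2 scale, and Clec4g of the same cells was higher by 0.68 in fasted p110αhep-/- mice on HFD. The other 3 endothelial markers were not called between genotypes, and the summed signal of all 5 on a log2 scale was 13.75 to 14.18, 13.75 to 14.16, 13.69 to 14.12 and 13.52 to 14.24 in p110αhep+/+ mice (CTRL fed, CTRL fasted, HFD fed, HFD fasted) and 14.09 to 14.36, 14.16 to 14.34, 14.03 to 14.19 and 14.14 to 14.33 in p110αhep-/- mice. It was higher without overlap in fasted p110αhep-/- mice on CTRL and overlapped between genotypes in the other 3. Lrat of stellate cells was 0.65 lower on the log2 scale in fed p110αhep-/- mice on CTRL, and no Kupffer cell or lymphocyte marker was called between genotypes. Some of these markers were thus called between genotypes in comparisons in which P450 genes were also called. Their part in the calls of the P450 genes was not tested.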

How the data were processed

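Liver RNA of 48 mice was measured on 1-colour arrays. The authors labelled the RNA with cyanine 3, and the deposited scanner files (Agilent Feature Extraction 10.10.1.1) give spot intensity, local background and flags without normalization. A table of log2 values that the authors filtered, corrected for washing batch and quantile normalized was used as an alternative. Genotype, diet, nutritional state and replicate number came from the labels, and every value column was matched to a sample. Probe positions are mm9, as in the scanner files.

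Log2 median signals were taken for non-control spots (59305 of 62976 per array), outlier spots were set to missing and repeated spots of 1 probe were averaged. Probes well above background on at least 5 of 6 arrays of a group were kept, 30793 of 56605. The washing batch was removed with group means protected, arrays were quantile normalized, and all 48 arrays were fitted in limma 3.58.1 (statmod 1.5.0, R 4.3.3) with a mean per group and array weights of 0.349 to 1.71. P-values were Benjamini-Hochberg adjusted over all probes kept. The fit was tested on simulated data.

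Named members were up to 3 with the largest rise and up to 3 with the largest fall in each comparison among called members without overlap, members called in an interaction, and 12 genes named whatever their result. Members, lists and motifs were chosen with earlier results of these data known. Each mouse is 1 replicate. The number of arrays limits the precision, and dim probes are less certain. Alternatives were the signal, background correction, scaling, dim filter, washing batch, slide, replicate number, weights, deposited table, probe choice, fold threshold and each array left out. Same-numbered mice did not deviate together (median r = 0.0115), so numbers were not taken as pairs. Left out of the results were 7 members not above background often enough.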

Additional observations from a re-analysis of the deposited data

Results flagged for a closer look

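Dixon's test for a lone array was run on the named members in 232 groups of 6 mice and marked 21, and chance alone marks about 1 group in 20. Replicate 3 of fed p110αhep-/- mice on HFD stood apart in 6, with Cyp1b1 high at 6.23 and with Cyp2c50 at 15.09, Cyp2c54 at 14.93, Cyp2d40 at 15.02, Cyp2d9 at 12.89 and Cyp2e1 at 18.3 low. This array had the lowest weight in the fit (0.349). Replicate 1 of fed p110αhep+/+ mice on HFD stood apart in 6, all low, with Cyp2a4 at 15.93, Cyp2a5 at 16.96, Cyp2c29 at 14.91, Cyp2c44 at 12.74, Cyp2d40 at 15.34 and Cyp2u1 at 15.28, and had a weight of 0.884.

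The other 9 lone values came from 9 arrays. In fasted p110αhep-/- mice on HFD, Cyp2c67 was low at 14.14 in replicate 1, Cyp2e1 at 18.35 in replicate 4 and Cyp2u1 at 16.56 in replicate 6. In fasted p110αhep+/+ mice on CTRL, Cyp2c44 was low at 13.48 in replicate 2 and Cyp2f2 high at 17.01 in replicate 1. Cyp2c40 was low at 12.34 in replicate 6 of fed p110αhep-/- mice on CTRL, and Cyp3a44 was high at 6.6 in replicate 6 of fasted p110αhep-/- mice on CTRL. Cyp2e1 was low at 18.37 in replicate 2 of fasted p110αhep+/+ mice on HFD, and Cyp3a16 was low at 12.49 in replicate 3 of fed p110αhep+/+ mice on HFD.

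In 21 cases the response to one factor differed between the levels of another by limma's interaction test. HFD minus CTRL in fasted mice differed between genotypes for Cyp1a2 (1.20), Cyp2a22 (0.92), Cyp2a4 (0.93), Cyp2a5 (0.59), Cyp2c44 (0.64), Cyp2c70 (1.54) and Cyp3a44 (-0.59), and in fed mice for Cyp2c68 (-0.64). Fasting on CTRL differed between genotypes for Cyp1a2 (-0.74), Cyp2c50 (-0.82), Cyp2c54 (-0.79) and Cyp2f2 (-0.62). In p110αhep-/- mice fasting differed between diets for Cyp1a2 (0.87), Cyp2c40 (0.67), Cyp2c67 (0.63), Cyp2c68 (0.85), Cyp2c69 (0.63), Cyp2c70 (3.42), Cyp2f2 (0.81) and Cyp3a44 (-0.66). In p110αhep+/+ mice it did so for Cyp2c70 (1.99). Both values of Cyp3a44 come from a probe that passed the brightness filter only in fasted p110αhep-/- mice on CTRL.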

How the results depend on the processing

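Of the 93 called differences of named members, 64 were called under all 10 settings that changed the values, and 69 with every array left out in turn. With no fold threshold the counts of called members rose to 18, 17, 17 and 16 for fasting (p110αhep+/+ and p110αhep-/- mice on CTRL, then on HFD), to 15 and 7 for HFD in fed and fasted p110αhep+/+ mice, to 25, 17, 23 and 24 for genotype (CTRL fed, CTRL fasted, HFD fed, HFD fasted), and to 2 for genotype by diet in fed mice and 1 for genotype by fasting on HFD. With the processed signal, fasting gave 11 in p110αhep-/- mice on CTRL and 8 in p110αhep+/+ mice on HFD, HFD in fasted p110αhep+/+ mice 5, genotype in fasted mice on CTRL 4, and genotype by diet 2 in fed and 4 in fasted mice. With median scaling, fasting in p110αhep+/+ mice on HFD gave 8 and genotype by diet in fed mice 2. Under 6 settings (normexp, no dim filter, slide block, replicate block, no weights, median over probes) HFD in fasted p110αhep+/+ mice gave 1. Normexp gave 1 for genotype in fasted mice on CTRL and 2 for genotype by diet in fed mice, which gave 0 without the dim filter, the washing batch correction, the weights, or with the replicate block. Genotype by fasting on CTRL gave 0 without the dim filter, 1 without weights and 2 with the replicate block, and beside it and those of HFD in fasted p110αhep+/+ mice and of genotype by diet in fed mice no count moved by over 1.5 times with that block. The median over probes gave 4 for genotype in fasted mice on CTRL, 1 for genotype by fasting on HFD and 2 for diet by fasting in p110αhep+/+ mice. The causes were not tested.

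With the median over its probes, Cyp2u1 turned to -0.57, -1.07 and -0.76 for fasting (p110αhep+/+ and p110αhep-/- mice on CTRL, p110αhep-/- mice on HFD), to -0.18, -0.023, -0.68 and -0.85 for genotype (CTRL fed, HFD fed, CTRL fasted, HFD fasted) and to 0.64 for diet by fasting in p110αhep+/+ mice.

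Leaving out 1 array at a time gave 0 to 2 called members for HFD in fasted p110αhep+/+ mice, 2 to 5 for genotype in fasted mice on CTRL, 0 to 2 and 3 to 8 for genotype by diet in fed and fasted mice, and 2 to 8 and 0 to 3 for genotype by fasting on CTRL and HFD. Leaving out the 2 arrays that stood apart, chosen after seeing the data, gave 1 for genotype by fasting on HFD. Another scaling moved the median of all probes by at most 0.0448.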
